A study of Mus musculus with 47 samples.

Results

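Pecam1, Cdh5, Stab1, Stab2, Lyve1, Kdr, Flt4, Tek, Tie1 and Eng are 10 genes of blood and lymphatic vessel lining that are silent in hepatocytes and active in liver endothelium. They were followed in whole-liver chromatin by their annotated spans in the mm9 mouse genome, 10 of 22359 protein-coding genes. For each gene, the percent of the span inside H3K27me3 regions and the number of H3K27ac and H3K4me1 peaks within 10 kb of the span were read from lists of 4 groups. The genes were chosen by their H3K27me3 coverage and their peak numbers in these same lists, which were known when they were proposed. Coverage and peak numbers are therefore given as descriptions.

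All mice were 7 weeks old. The floxed control groups, male and female, were Ezh2 f/f. The E1/E2-KO groups of each sex, labelled DKO, were Ezh1-/-, EZH2f/f, AC+, where AC is Alb-Cre, a recombinase driven by the albumin promoter. Ezh1 was thus absent from all cells of E1/E2-KO liver, whereas Ezh2 was deleted in hepatocytes and retained in endothelial and other non-parenchymal cells. Frozen tissue from 4 livers was used for each group and mark. For H3K4me1 in E1/E2-KO females 3 samples are listed, although the paper describes 4 livers for this group as well. The reads of the livers of a group were joined before peak calling, so there was 1 list per mark and group, with no replicate, no standard deviation and no test between groups. In whole-liver chromatin, a change in the share of cells that carry a mark and a change of the mark within cells cannot be told apart.

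H3K27me3, trimethylation of histone H3 at lysine 27, is laid down by Polycomb repressive complexes through their enzymes Ezh1 or Ezh2, often over wide domains of genes that a cell type does not use. H3K27ac marks active promoters and enhancers on the same lysine, and H3K4me1 marks enhancers, both active and poised. The lining of liver sinusoids is formed by specialised endothelial cells with scavenger receptors, and hepatocytes, which make up most of the liver's mass, do not use these genes.

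H3K27me3 lists held 15603 to 19796 regions that covered 707 to 766 Mb. The H3K27ac lists held 29359 peaks in control males, 55930 in E1/E2-KO males, 49702 in control females and 51253 in E1/E2-KO females, so that the control male list was far the shortest. For H3K4me1 there were 69797, 67913, 54798 and 51417 peaks in the same order. The depth behind each list is unknown, and a place outside the intervals of a list may still hold signal below the caller's limit. All of 13 hepatocyte genes, such as Alb and Hnf4a, had an H3K27ac peak within 10 kb in each of the 4 lists. So did 12 of 12 endothelial transcription factor genes in every list but that of control males, where 8 had one. The median over all protein-coding genes was 1 or 2 peaks. Fewer genes of other cell types had one, 1, 2, 3 and 2 of 11 Kupffer genes in control males, E1/E2-KO males, control females and E1/E2-KO females. In the same order it was 1, 5, 2 and 7 of 10 stellate genes. The presence of a peak therefore does not separate hepatocyte genes from endothelial transcription factor genes, and it was not used as a check of liver identity.

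The starts of Stab1, Stab2 and Eng lay in H3K27me3 regions of control liver, and those of Stab1 and Stab2 were outside such regions in E1/E2-KO liver of both sexes. Kdr and Flt4 had the same coverage, or nearly so, in all groups. The promoters of these genes, 300 bases from 250 before to 50 after the RefSeq start, are shown because they differ in CpG content, with each CG dinucleotide in capitals. RefSeq promoters, tabulated for build GRCm38.p6, matched 7 of the 10 genes, all but Pecam1, Cdh5 and Lyve1, and were located in mm9 by an exact match. Stab1 is at chr14:31981778-31982077 and Stab2 at chr10:86470638-86470937, both on the minus strand. Eng is at chr2:32501865-32502164 on the plus strand, Kdr at chr5:76374431-76374730 on the minus strand and Flt4 at chr11:49422931-49423230 on the plus strand.
Stab1: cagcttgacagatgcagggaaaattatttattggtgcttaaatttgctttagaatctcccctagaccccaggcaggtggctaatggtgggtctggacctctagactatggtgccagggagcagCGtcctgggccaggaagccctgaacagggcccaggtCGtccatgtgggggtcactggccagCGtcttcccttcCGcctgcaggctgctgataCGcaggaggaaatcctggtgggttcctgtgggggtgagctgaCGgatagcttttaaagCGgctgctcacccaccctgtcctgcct
Stab2: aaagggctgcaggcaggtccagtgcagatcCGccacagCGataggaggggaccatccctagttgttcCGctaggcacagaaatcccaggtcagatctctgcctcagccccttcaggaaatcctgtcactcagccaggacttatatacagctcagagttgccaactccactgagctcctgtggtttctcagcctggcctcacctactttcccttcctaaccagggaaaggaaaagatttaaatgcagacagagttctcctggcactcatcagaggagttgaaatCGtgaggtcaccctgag
Eng: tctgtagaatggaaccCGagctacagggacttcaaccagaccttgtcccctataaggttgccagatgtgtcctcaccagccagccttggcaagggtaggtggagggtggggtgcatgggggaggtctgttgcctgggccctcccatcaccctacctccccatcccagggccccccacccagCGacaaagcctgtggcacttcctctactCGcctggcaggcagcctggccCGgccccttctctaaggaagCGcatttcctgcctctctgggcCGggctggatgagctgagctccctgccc
Kdr: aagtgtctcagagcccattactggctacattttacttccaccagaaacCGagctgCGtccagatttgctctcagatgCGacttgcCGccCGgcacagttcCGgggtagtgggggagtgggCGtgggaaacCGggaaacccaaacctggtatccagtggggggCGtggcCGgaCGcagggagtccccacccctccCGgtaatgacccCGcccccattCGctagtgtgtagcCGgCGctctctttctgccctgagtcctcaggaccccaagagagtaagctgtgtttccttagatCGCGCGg
Flt4: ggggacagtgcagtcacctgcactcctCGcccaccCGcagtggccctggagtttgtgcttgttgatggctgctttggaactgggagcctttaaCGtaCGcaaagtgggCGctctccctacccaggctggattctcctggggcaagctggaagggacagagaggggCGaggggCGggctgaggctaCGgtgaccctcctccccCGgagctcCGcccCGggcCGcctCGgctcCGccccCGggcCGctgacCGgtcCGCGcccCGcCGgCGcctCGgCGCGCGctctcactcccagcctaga

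The Stab1, Stab2 and Eng promoters held 7, 4 and 6 CG dinucleotides, those of Tek and Tie1 held 3 and 7, and the median of 32841 RefSeq mouse promoters was 7. Kdr held 19 and Flt4 26, which was at least as many as in 73.5% and 84.5% of all promoters. These were the CG-richest promoters of the 7, a description of few genes with no test. The Kdr promoter lay inside H3K27me3 in all lists, whereas that of Flt4 lay outside it in all lists, upstream of the region over the gene. RefSeq starts lay 416, 212 and 83 bp downstream of the annotated starts used elsewhere for Flt4, Tie1 and Stab2. The offset was -27 bp at Kdr, -11 bp at Tek and 0 at Stab1 and Eng. The Flt4 window thus lies within the annotated span of the gene. GC content was 57.3% for Stab1, 53.0% for Stab2, 63.3% for Eng, 60.7% for Kdr and 70.3% for Flt4, against a median of 52.7%. AGGAAG, a form of the site of ETS factors, which are regulators of endothelial genes, was searched on both strands. It occurred in Stab1, Stab2, Eng and Tie1 and in 35.4% of all promoters. The GC box GGGCGG, also on either strand, was found 2 times in Kdr and 3 times in Flt4, in none of the other 5, and in 35.7% of all promoters. The letters AGATAA, read by zinc finger regulators of blood and vessel genes, matched in Tek alone among the 7 and in 11.2% of all promoters. TATAAA was found in none of the 7 and in 13.6% of all promoters. These matches describe the letters of the windows and are not binding sites.

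The first comparison asked which endothelial genes lay in H3K27me3 regions of control liver and which of them remained there in E1/E2-KO liver. In control males the 10 genes had a median coverage of 87.2%, and in E1/E2-KO males 18.6%. Control females had a median of 65.5% and E1/E2-KO females 0%. The median over all protein-coding genes was 0% in every list. At least 50% of the span was covered at 7 of the 10 genes in control males, 3 in E1/E2-KO males, 7 in control females and 2 in E1/E2-KO females, beside 29.9%, 32.4%, 29.7% and 28.6% of all genes. Coverage was lower by 25 percentage points or more in E1/E2-KO at 5 of the 10 genes in males, where 6.18% of all protein-coding genes were, and at 6 of 10 in females, where 7.55% were. The same 5 genes, Pecam1, Cdh5, Stab1, Stab2 and Eng, were lower in both sexes, as were 2.8% of all genes. With equal numbers of the widest regions in each list, Stab1 differed by 0 points in females and was no longer among them. In a window of 5 kb centred on the start, Cdh5 in both sexes and Eng in males lost the call. With a limit of 50 points, Eng in males (-41.0) and Stab1 in females (-39.2) did not pass. Among genes covered over at least 50% of their span in controls, 5 of 7 of these genes were lower in males and 5 of 7 in females, and over all such genes 17.3% and 20.8% were lower. The choice of the genes fixed these counts in part, and nothing is read from them about endothelial genes in general.

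**Figure D1:**
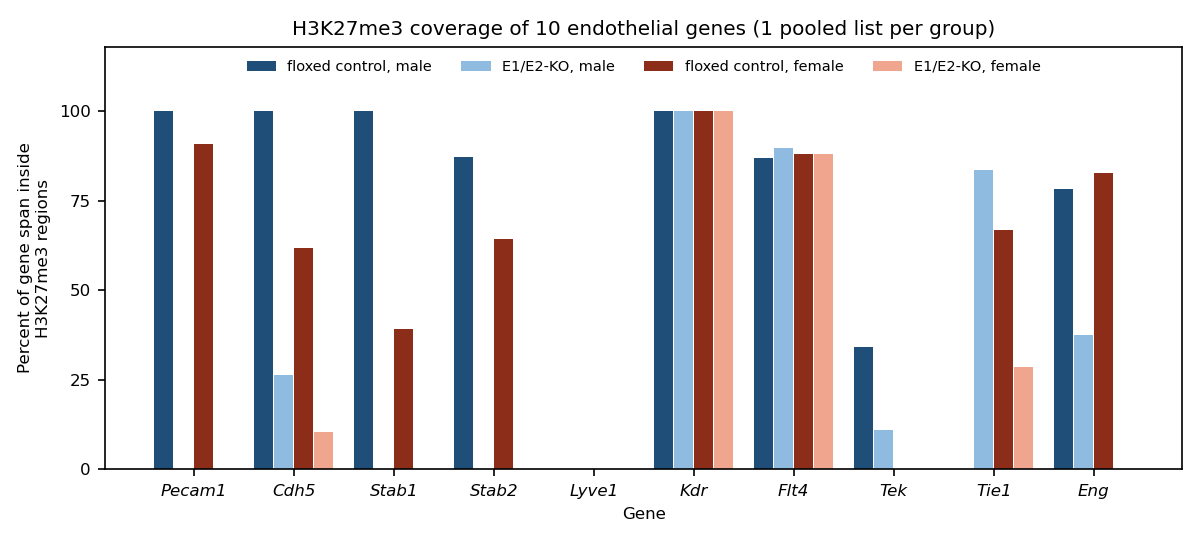
Percent of each gene span inside H3K27me3 regions (vertical axis) for the 10 genes in the 4 lists, 1 bar per list and no error since each list is pooled. Pecam1, Stab1 and Stab2 stand at 0 in both E1/E2-KO lists, Kdr and Flt4 are level across the groups, and Tie1 goes opposite ways in the sexes.

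Pecam1 encodes an adhesion molecule of endothelial junctions (ENSMUSG00000020717, chr11:106515532-106576708, minus strand). Its coverage was 100% in control males, 0% in E1/E2-KO males, 90.8% in control females and 0% in E1/E2-KO females. Both control lists were high and both E1/E2-KO lists were at 0. A region of 136000 bp, from -54.1 to 81.9 kb relative to the start, spanned the gene in control males. Control females had 2 regions of 37200 and 30400 bp in its place. In E1/E2-KO liver the nearest region was 285931 bp from the gene in males and in females, so the lists held no region over its surroundings.

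Cdh5, the cadherin of endothelial junctions (ENSMUSG00000031871, chr8:106625525-106668402, plus strand), was 100% covered in control males and 26.3% in E1/E2-KO males. In females the values were 61.8% and 10.4%. What remained in E1/E2-KO liver was a region over the start, of 18400 bp in males and 6800 bp in females. Relative to the start it ran from -7.12 to 11.3 kb in males and from -2.32 to 4.48 kb in females. The start of Cdh5 was inside a region in all 4 lists, and the lower coverage came from the body and the end of the gene.

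Stab1 and Stab2 encode the stabilins, scavenger receptors that define liver sinusoidal endothelium. Stab1 (ENSMUSG00000042286, chr14:31952199-31981827, minus strand) was 100% covered in control males and 39.2% in control females, and was listed at 0 in E1/E2-KO of both sexes. A region of 41600 bp covered it in control males. Females had a region of 10400 bp over the start and 1 of 9600 bp over the end. Stab2 (ENSMUSG00000035459, chr10:86303943-86470770, minus strand), the longest of the 10 genes at 166828 bp, was 87.3% covered in control males, 64.2% in control females and 0% in both E1/E2-KO lists. For both stabilins, the control lists and the E1/E2-KO lists did not overlap.

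Stab2 was covered in 3 pieces in control males and 5 in control females. The widest male region, of 117600 bp, included the start and the first 97.2 kb of the gene. Both control lists had a gap between regions, from 117 to 133 kb from the start in males and from 114 to 133 kb in females. In E1/E2-KO males the nearest region was 17630 bp from the gene, upstream of the start, and in E1/E2-KO females it was 45630 bp away.

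Lyve1, the hyaluronan receptor of lymphatic and sinusoidal endothelium (ENSMUSG00000030787, chr7:117994121-118006467, minus strand), was outside every list. Coverage was 0% in all 4 groups, and the nearest region was 40520 to 42520 bp away, downstream of the gene. It therefore had no coverage to lose.

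The receptor tyrosine kinases of the vascular endothelial growth factors kept their regions. Kdr, the main receptor for Vegfa (ENSMUSG00000062960, chr5:76330383-76374453, minus strand), was 100% covered in all 4 lists, start included. Regions there spanned 158000 bp in control males and 164400 bp in control females, and 106800 bp and 98400 bp in E1/E2-KO males and females. They were narrower in E1/E2-KO on the downstream side, where they ended 51.7 and 53.7 kb from the start instead of 110.5 kb. Flt4, the receptor for Vegfc (ENSMUSG00000020357, chr11:49422765-49466241, plus strand), was 87.0% covered in control males, 89.8% in E1/E2-KO males and 88.0% in both female lists. Its region began 4.44 to 5.64 kb into the gene, so its start was outside H3K27me3 in all lists.

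Tek and Tie1 encode the angiopoietin receptor and its partner. Tek (ENSMUSG00000006386, chr4:94405991-94541630, plus strand) was 34.2% covered in control males, 10.9% in E1/E2-KO males and 0% in both female lists. Its male difference of -23.3 percentage points was the nearest below the limit of 25. The region that was called in control males and not in E1/E2-KO males lay 8.41 to 28.0 kb into the gene. Tie1 (ENSMUSG00000033191, chr4:118143796-118162666, minus strand) was 0% covered in control males and 83.8% in E1/E2-KO males, and in females 66.8% in controls and 28.6% in E1/E2-KO. Coverage was thus higher in E1/E2-KO in males and lower in females, although the female difference became 2.12 points with regions of at least 10 kb or equal numbers of the widest regions. In all 4 lists the Tie1 start was outside H3K27me3, and the regions lay over the body of the gene and beyond its end. The nearest region in control males was 2195 bp beyond that end.

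Eng encodes endoglin, a co-receptor for Bmp9, Bmp10 and transforming growth factor beta (ENSMUSG00000026814, chr2:32502115-32538178, plus strand). Its coverage was 78.4% in control males and 37.4% in E1/E2-KO males, and 82.9% and 0% in females. The difference of -41.0 percentage points in males was the smallest of the 5 that passed the limit there. In E1/E2-KO males a region of 69600 bp still held the start and the first 13.5 kb, whereas in E1/E2-KO females the nearest region was 60114 bp upstream.

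Transcription starts gave the same order of groups as the spans. A region held 6 of the 10 starts in control males, 3 in E1/E2-KO males, 6 in control females and 2 in E1/E2-KO females. Over all protein-coding genes the shares were 34.3%, 38.7%, 35.1% and 33.8%. Starts outside in both E1/E2-KO lists and inside in both control lists were those of Pecam1, Stab1 and Stab2. The Eng start was outside in E1/E2-KO females alone. Kdr and Cdh5 starts were inside in every list.

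H3K27ac was then read at the same genes. The 10 genes had 12 peaks within 10 kb in control males, 45 in E1/E2-KO males, 36 in control females and 37 in E1/E2-KO females. In males, 9 of 10 genes had more peaks in E1/E2-KO and 1, Tie1, had fewer. Over all protein-coding genes 43.6% had more and 4.8% had fewer in this comparison, in which the control list was the shortest. In females, 5 of 10 genes had more peaks and 5 had fewer, beside 22.4% and 19.3% of all genes. With the 29359 widest peaks of each list, 5 of 10 genes had more and 2 fewer in males, and 3 had more and 1 fewer in females. Over all genes 15.2% then had more and 18.6% fewer in males, and 15.5% more and 15.4% fewer in females. With peaks of at least 500 bp, a limit on width that leaves the lists unequal, 5 genes had more and 0 fewer in males, and 3 more and 0 fewer in females. Over all genes 29.1% had more and 2.83% fewer in males, and 7.59% and 20.3% in females. Cdh5 and Kdr differed by 0 in both sexes with the widest 29359 peaks and with the 500 bp limit. The separate parts of list length and peak width in the male count were not tested.

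**Figure D2:**
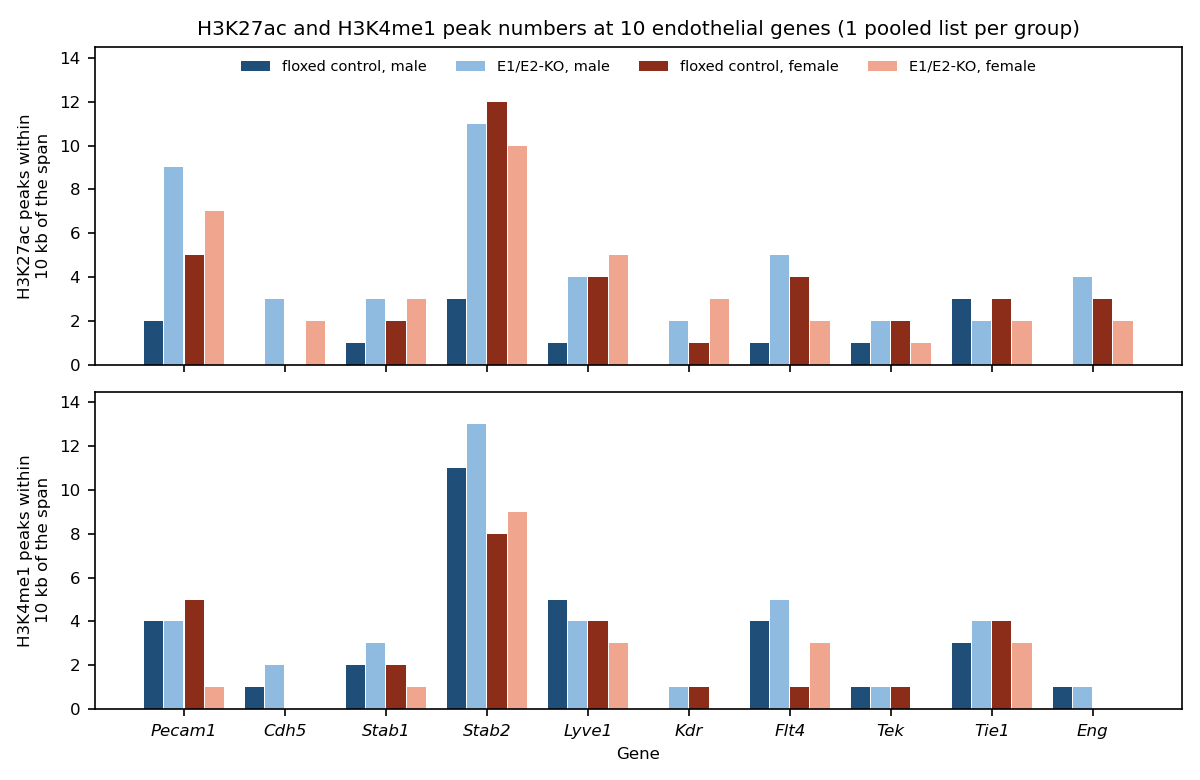
Number of H3K27ac (upper) and H3K4me1 (lower) peaks within 10 kb of each gene span, 1 bar per pooled list. H3K27ac bars of control males are the lowest, or level with the lowest, at all genes but Tie1, while H3K4me1 bars of the groups lie close together at most genes.

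Pecam1 had 2 H3K27ac peaks in control males and 9 in E1/E2-KO males, 5 in control females and 7 in E1/E2-KO females. The number was higher in E1/E2-KO in both sexes as listed. With the widest 29359 peaks of each list, Pecam1 differed by 0 in males and -2 in females. A peak 54.7 to 55.1 kb from the start, in an intron, was called in all 4 lists, inside H3K27me3 in controls and outside it in E1/E2-KO. Intronic peaks 16.5 kb and 39.5 to 39.7 kb from the start were called in E1/E2-KO lists of both sexes and in neither control list. Near the start, controls had a peak 0.33 to 0.38 kb into the gene. E1/E2-KO males had a peak 1.08 kb into the gene and E1/E2-KO females a peak centred at -0.21 kb.

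No H3K27ac peak was called at Cdh5 in either control list. E1/E2-KO males had 3 peaks, centred at -5.51, -0.33 and 0.22 kb from the start, and E1/E2-KO females had 2, centred at -5.52 and 0.96 kb. Those of males and the peak after the start in females lay inside the H3K27me3 region that remained over the start. For Eng, control males had 0 peaks, E1/E2-KO males 4, control females 3 and E1/E2-KO females 2, so the direction differed between sexes, whereas the difference was 1 in both sexes when equal numbers of the widest peaks were kept. In both E1/E2-KO lists a peak was called 0.42 or 0.37 kb into the gene, 609 bp wide in males and 572 bp in females. It overlapped no peak of either control list.

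At Stab1 the numbers were 1 in control males, 3 in E1/E2-KO males, 2 in control females and 3 in E1/E2-KO females. A peak 8.0 to 8.3 kb into the gene was called in both E1/E2-KO lists and in neither control list. H3K4me1 peaks at this place, 8.0 to 8.3 kb from the start, were called in all 4 lists. Stab1 thus had H3K4me1 there in controls, inside H3K27me3, and both H3K4me1 and H3K27ac in E1/E2-KO, outside it. The start of Nt5dc2 lies within the 10 kb flank of Stab1, 33.8 kb from the Stab1 start, so peaks of the flank may belong to it.

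Stab2 had 3 H3K27ac peaks in control males, as many as Tie1, and more than any other of the 10 genes in the remaining lists, 11 in E1/E2-KO males, 12 in control females and 10 in E1/E2-KO females. In E1/E2-KO they were more numerous in males and fewer in females, although the female difference was 0 with equal numbers of the widest peaks and 1 with peaks of at least 500 bp. A pair of intronic peaks, 127 and 128 to 129 kb from the start, was called in all 4 lists. This pair lay in the gap between H3K27me3 regions of both controls, and 3 H3K4me1 peaks, at 126 to 129 kb, were also called there in all 4 lists. In control females, peaks at 60.5, 83.6 and 84.3 kb likewise lay between H3K27me3 regions. Control males had H3K27me3 over those positions and, of peaks there, 1 near 85 kb, whereas E1/E2-KO males had peaks at 60.7, 83.7 and 84.6 kb. A peak at the start itself, 0.37 kb into the gene, was called only in E1/E2-KO females among the 4 lists.

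Lyve1 had 1, 4, 4 and 5 H3K27ac peaks in control males, E1/E2-KO males, control females and E1/E2-KO females. The peak common to all lists, about 19 kb from the Lyve1 start, was next to the start of the neighbour Rnf141 at 18.5 kb. Of the others, the intronic peak 8.7 to 8.8 kb from the start was called in all but the control male list.

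Kdr had 0, 2, 1 and 3 H3K27ac peaks in the same order. The peak 0.30 to 0.36 kb into the gene was called in every list but that of control males, and an intronic peak at 15.3 to 15.4 kb in both E1/E2-KO lists and neither control list. All of these lay inside H3K27me3 regions. Flt4 had 1, 5, 4 and 2 peaks, all inside H3K27me3 regions, with opposite directions in the sexes that were lost in the same way, the female difference being 0 and 1 under those settings. In control females the peak 49.6 kb from the start lay in a region beyond the one that covers the gene. Whole-liver chromatin thus carried both marks over Kdr and Flt4 in all groups but control males, where neither span held an H3K27ac peak. Whether the same cells carried both was not tested.

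Tek had 1, 2, 2 and 1 peaks, none inside H3K27me3. Tie1 had 3, 2, 3 and 2, and it alone of the 10 genes had an H3K27ac peak across the start, which was called in all 4 lists with a width of 930 to 1214 bp. With equal numbers of the widest peaks, the difference at Tek turned to -1 in males and was 0 in females. At Tie1 it was then -2 in males and turned to 1 in females. An H3K4me1 peak within 1 kb of the Tie1 start was also called in each list. Over the 10 genes, an H3K27ac peak lay within 1 kb of the start of 3 in control males, 7 in E1/E2-KO males, 4 in control females and 8 in E1/E2-KO females. Over all genes the shares were 45%, 52%, 51% and 51.7%.

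The position of peaks relative to H3K27me3 was compared next. Of H3K27ac peaks at the 10 genes, 5 of 12 lay inside an H3K27me3 region of the same group in control males and 15 of 36 in control females. In E1/E2-KO it was 11 of 45 in males and 6 of 37 in females. Genome-wide, 15.5% and 19.1% of control peaks and 33.6% and 22.2% of E1/E2-KO peaks did so. Peaks of E1/E2-KO without an overlapping control peak numbered 38 of 45 in males and 19 of 37 in females, beside 54.5% and 24.9% of all E1/E2-KO peaks in the genome. Of these, 29 and 17 lay inside control H3K27me3. Of all such peaks in the genome 29.9% and 33.1% lay inside control H3K27me3. Since genes covered in controls were chosen, a high share at them was given by the choice. Peaks of control liver without an overlapping E1/E2-KO peak numbered 5 of 12 in males and 19 of 36 in females, beside 9.66% and 27.9% of all control peaks.

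H3K4me1, the enhancer mark, varied less in number. The 10 genes had 32 peaks in control males, 38 in E1/E2-KO males, 26 in control females and 20 in E1/E2-KO females. More peaks were called in E1/E2-KO at 6 genes and fewer at 1 in males, where 24.7% of all genes had more and 28.9% fewer. With the 51417 widest peaks of each list, 5 genes had more and 2 fewer in males, beside 24.1% and 25% of all genes. With peaks of at least 500 bp the balance turned, to 3 genes with more and 4 with fewer in males, beside 19.9% and 22.2% of all genes. In females 2 genes had more and 6 fewer, beside 20.4% and 30.4% of all genes. The female E1/E2-KO list, for which 3 samples are listed, was the shortest.

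Stab2 held 11, 13, 8 and 9 H3K4me1 peaks in control males, E1/E2-KO males, control females and E1/E2-KO females, the largest number of the 10 genes in each list. Of its control male peaks, 6 lay inside H3K27me3 regions and 5 outside them. Those at 161, 136, 84 and 61 kb from the start were called in all 4 lists, whether covered by H3K27me3 or not. Pecam1 had 4, 4, 5 and 1, and the peak common to the last 3 lists was downstream of the gene, 66.6 to 66.7 kb from the start. All 4 of its control male peaks lay inside H3K27me3, and none of them overlapped a peak of E1/E2-KO males. Over the 10 genes, 9 of 32 control male peaks had no such overlap, beside 31.8% of all control male H3K4me1 peaks in the genome. An H3K4me1 peak lay within 1 kb of the start of 1, 2, 2 and 1 of the 10 genes in this order of groups, beside 47.1%, 45.9%, 40% and 36.2% of all genes. Kdr had an H3K4me1 peak over its start in E1/E2-KO males and control females and in neither other list. Eng, Cdh5 and Tek each had at most 2 peaks in any list. Peaks inside H3K27me3 of the same group were 18 of 32 in control males, 10 of 38 in E1/E2-KO males, 11 of 26 in control females and 2 of 20 in E1/E2-KO females, against 27.7%, 39.9%, 25.9% and 27.9% genome-wide.

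The pathways of these receptors and the other cell types of the liver were read in the same way, by counts of genes with coverage lower or higher by at least 25 points. Of 32 other endothelial genes, 10 were lower in males and 10 in females, and 2 were higher in each sex. Over all protein-coding genes, 6.18% were lower and 9.81% higher in males, and 7.55% were lower and 6.3% higher in females. Icam2, an endothelial adhesion ligand, and Fcgr2b, the Fc receptor of sinusoidal endothelium, were covered over 100% in both controls and 0% in both E1/E2-KO lists. S1pr1, the sphingosine 1-phosphate receptor, went from 0% to 100% in males and from 0% to 60.0% in females. Of 12 endothelial transcription factors 3 were lower in each sex, not all of them the same genes, and 2 were higher in males and 1 in females. Lyl1 went from 0% to 80.2% in males and from 100% to 0% in females. Klf2, a factor induced by blood flow, was 100% covered in control males and 0% in the other lists. Gata4 was 0% and 100% covered in control and E1/E2-KO males, and 11.5% and 36.5% in females.

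Of 7 partner receptors 1 was lower in males and 0 in females, and 1 was higher in males and 0 in females. The shares of all genes that were lower, 6.18% in males and 7.55% in females, apply here and to the ligands. Tgfbr2, a receptor for transforming growth factor beta, was 96.5% covered in control males and 2.4% in E1/E2-KO males, and 20.9% and 0% in females. Nrp2, a co-receptor for Vegfc, was 47.8% and 83.3% covered in males and 37.0% and 36.0% in females. Of 11 ligands 2 were lower in males and 1 in females, and 2 were higher in each sex. Tgfb1 was 100% covered in both controls and 0% in both E1/E2-KO lists. Bmp10, a ligand of Eng, went from 47.3% to 0% in males and from 0% to 100% in females. Vegfa, the ligand of Kdr that hepatocytes make, was higher in both sexes, from 0% to 100% in males and from 15.3% to 100% in females.

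Of markers of other liver cells, 1 of 11 Kupffer genes was lower in each sex, 1 of 10 stellate genes in males and 2 in females, and 0 of 5 cholangiocyte genes in either sex. Among 7 lymphocyte genes and among 10 developmental genes silent in liver, 1 was lower in males and 0 in females. Of all genes 6.18% were lower in males and 7.55% in females. Coverage was higher by 25 points or more at 1 cholangiocyte gene in females and 1 lymphocyte gene in males, and at none of the other genes of these 5 lists. Median coverage of each of these 5 lists was 100% in all 4 groups. Of 13 hepatocyte genes, 1 was lower in males and 0 in females, while 8 were higher by 25 points or more in males and 6 in females, where 9.81% and 6.3% of all genes were higher. Hnf4a, Fgb and Asgr1 each went from 0% to 100% in both sexes. The higher number of H3K27ac peaks in E1/E2-KO males was not particular to the 10 genes. It was seen at 13 of 13 hepatocyte genes, 26 of 32 other endothelial genes and 9 of 12 endothelial transcription factors. It was also seen at 8 of 11 ligands and 6 of 7 partner receptors. In the other 5 lists it ran from 1 of 11 Kupffer genes to 5 of 10 stellate genes, beside 43.6% of all genes. Each list has few genes, none was tested against another, and the difference between lists is a description.

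**Figure D3:**
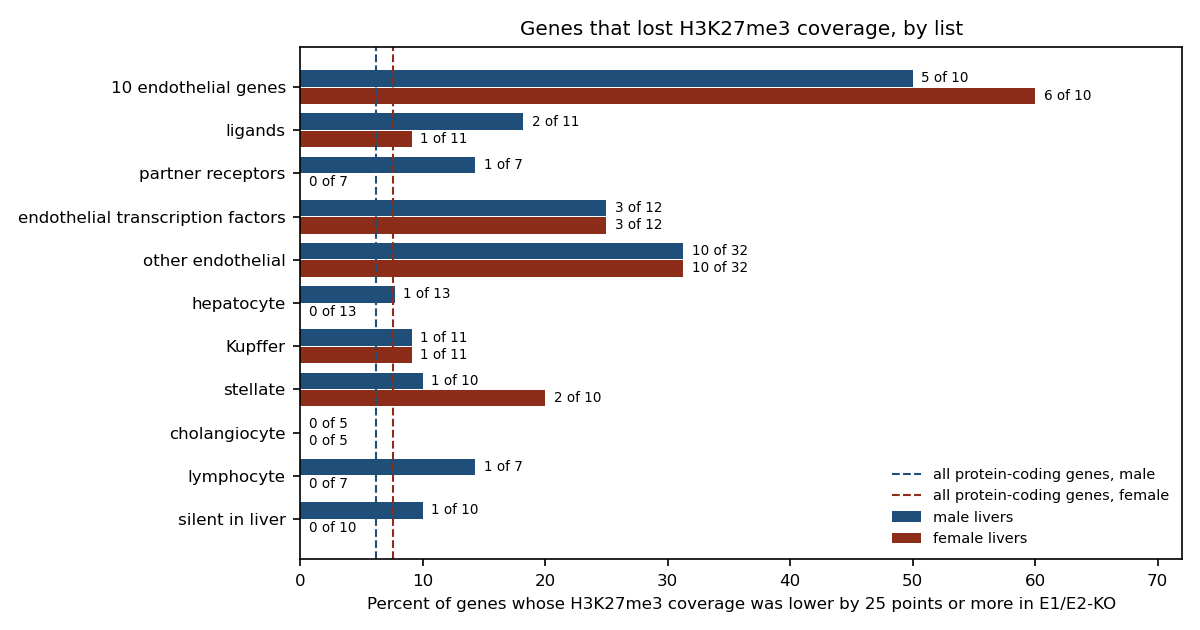
Percent of the genes of each list (horizontal axis) whose H3K27me3 coverage was lower by 25 percentage points or more in E1/E2-KO than in control liver of the same sex, with the number of genes at each bar. Dashed lines give the share of all protein-coding genes, 6.18% in males and 7.55% in females.

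Genes most like the median profile of the 10 were sought over 12 values. These were coverage in 4 lists and log2(peaks + 1) in 8 lists, each divided by its standard deviation over all genes. The 5 other genes with the smallest Euclidean distance to the median profile were Ces5a, Myo9a, Gm17343, Fmnl3 and Cenpm, at distances of 1.05 to 1.14. Ces5a was 80.7% and 86.1% covered in control males and females and 0% in both E1/E2-KO lists. Myo9a, of 177971 bp, was 69.2% and 65.4% covered in controls and 3.08% and 5.32% in E1/E2-KO. Gm17343 lies at chr2:32442060-32443878, next to the region nearest to Eng in E1/E2-KO females. It was 100% covered in controls and 0% in E1/E2-KO. Of the 10 genes, Stab1 was nearest to the median profile at 0.99 and Stab2 farthest from it at 4.54, which gives the spread of patterns within the group. Pecam1 came next after Stab1, at 2.31 and rank 564 among all genes. The median profile is thus close to Stab1 alone of the 10.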

How the data were processed

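ChIP-seq of 47 samples was deposited by the authors as 12 lists, 1 per mark and group, of region or peak coordinates (chromosome, start, end and name) in mm9, with no score, count or other quantity. The authors concatenated the reads of a group, aligned them by Bowtie2 2.3.2, and ran SICER 1.1 for H3K27me3 and MACS2 2.1.1 with default settings for the others. Versions are those of the submitters' processing notes. Because SICER ends stop 1 base short of its 400 bp windows, 1 base was put back.

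Gene spans came from GENCODE M1 on NCBIM37, which is mm9, and no region or peak ended past a chromosome of that genome. For each of 22359 genes, the protein-coding transcript was used whose start was shared, within 500 bp, by most protein-coding transcripts, the longest coding sequence deciding ties. Coverage is the percent of the span inside regions. Peaks were counted within 10 kb of the span with an overlap of at least 1 bp. Genes counted as changed differed by at least 25 percentage points or by at least 1 peak.

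The 10 genes, the other lists and the limits were chosen with earlier results of these data known. Most named genes outside the 10 are those with the largest summed fall or rise of coverage in a list where a result turned on it. All genes with the same value, and the 5 genes nearest to the median profile of the 10, are named too. Lyl1 and Bmp10 are named outside this rule, with coverage that went opposite ways in the sexes. Alb is named as an example, and Nt5dc2 and Rnf141 as neighbours. Coverage and counting were tested on simulated data. Python 3.11.15, NumPy 2.4.6, SciPy 1.17.1 and matplotlib 3.10.9 were used.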

Additional observations from a re-analysis of the deposited data

Results flagged for a closer look

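Differences between E1/E2-KO and control liver that went opposite ways in the sexes, by at least 25 percentage points of coverage or at least 2 peaks in each sex, were found at 3 genes. Smaller opposite differences, of 1 peak in at least 1 sex, were at other genes or marks, namely H3K27ac at Eng and Tek and H3K4me1 at Stab1, Kdr and Tie1. No list has a replicate, so the difference between sexes was not tested. H3K27me3 coverage of Tie1 was 83.8 percentage points higher in E1/E2-KO than in control males, whereas the difference in females was -38.2 points. The latter turned to 2.12 points with regions of at least 10 kb or equal numbers of the widest regions, which ends the opposite direction. In a window of 5 kb centred on the start, the Tie1 difference was 0 in both sexes. The number of H3K27ac peaks at Stab2 differed by 8 in males and by -2 in females. At Flt4 it differed by 4 in males and by -2 in females. With equal numbers of the widest peaks the female difference was 0 at both genes, and with peaks of at least 500 bp it was 1 at both, so that the opposite direction was lost under both settings. For Stab2 and Flt4 the control male list, which is the shortest, held the lowest number of the 4 lists.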

How the results depend on the processing

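No paired analysis was possible because the livers of a group were joined in 1 list, and for the same reason no liver could be left out. The number of genes with lower H3K27me3 coverage was 5 in males and 6 in females, and stayed within 1.5 times of these under limits of 10 or 50 points, spans extended by 3 kb, regions of at least 10 kb, equal numbers of the widest regions, joined regions, ends as deposited and, chosen after seeing the data, whole annotated gene spans. The exception was a window of 5 kb centred on the start, with 3 genes in males (4 in females), where Cdh5 in both sexes, Eng in males and Tie1 in females lost the call. The higher coverage of Tie1 in E1/E2-KO males, 83.8 points over the span, was also lost in this window, with a difference of 0. Stab1 lost its call in females with equal numbers of the widest regions. Tie1 in females changed sign with regions of at least 10 kb and with equal numbers of the widest regions, to 2.12 percentage points each, since its region of 7600 bp in control females is then left out. The number of genes with more H3K27ac peaks, 9 in males and 5 in females, became 4 in males within 5 kb of the start, 5 in males and 3 in females with the widest peaks or with peaks of at least 500 bp, and 3 in females when at least 2 more peaks were asked for. For H3K4me1, 6 in males became 1 within 5 kb of the start or with at least 2 more peaks, and 3 with peaks joined or at least 500 bp wide. In females 2 became 1 within 50 kb, in the span only, by bases or with at least 2 more peaks, and 0 within 5 kb of the start or with peaks of at least 500 bp. The cause was not tested. In all, 33 of 50 counts stayed within 1.5 times, and 131 of 140 coverage differences of single genes moved by less than 25 points.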
